A study of Mus musculus with 18 samples.

Results

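Glutamate released at synapses is cleared mainly by astrocytes, which take it up through the transporters GLT-1 and GLAST, turn part of it into glutamine and hand the glutamine back to neurons. Part of the glutamate instead enters the tricarboxylic acid cycle through glutamate dehydrogenase. Astrocytes also take up GABA, which is broken down in mitochondria to succinate. The 8 genes described here encode steps of this traffic and were chosen by name: the plasma membrane transporters Slc1a2, Slc1a3 and Slc6a11, the glutamine-forming enzyme Glul, the glutamine transporter Slc38a3, the mitochondrial enzyme Glud1, and the GABA-degrading enzymes Abat and Aldh5a1. They are 8 of the 21923 genes in the deposited table. The choice set no threshold on a measured value, but it was made with earlier results of these data known.

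The samples are cortical RNA from male C57BL/6 mice kept in the homecage, in which the glucose transporter GLUT1 (Slc2a1) was deleted from astrocytes in adulthood. Translating ribosome affinity purification (TRAP) was used, which captures ribosomes tagged with EGFP and the mRNA bound to them, so that the immunoprecipitate (IP) is enriched for the RNA of cells carrying the tag. Control mice were GLUT1 +/+;GLAST CreERT2/+ (labelled GLAC +/wt) and knockout (cKO) mice were GLUT1 fl/fl;GLAST CreERT2/+ (labelled GLUT1 flox/flox;GLAC +/wt). Every animal of both genotypes therefore carried the tamoxifen-inducible Cre recombinase CreERT2, driven by the promoter of Slc1a3, the gene of GLAST. Every animal also received the Cre-dependent virus AAV-PHP.eB-hGFAP-DIO-EGFPL10a by intravenous injection, and 7 days later tamoxifen at 100 mg per kg on 5 days at an age of 8 to 10 weeks. RNA was collected 60 days after tamoxifen. Controls had no floxed allele, so the effect of the floxed allele itself and that of the deletion cannot be told apart. The tag is made only in cells in which both the hGFAP promoter and Cre had been active.

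Values are from 3 control and 4 cKO IP libraries, named here by their column numbers (control 11, 15 and 19, cKO 1, 5, 9 and 17). The labels list 18 samples, 5 of them control IP, 4 cKO IP and 9 input (RNA before the pull-down). The remaining 2 control IP and the 9 input samples were not analysed here, so enrichment of the 8 genes over input is not given. The authors left out IP samples with high expression of neuronal genes and a sample with few reads. Total estimated counts ran from 19294376 to 40734322 in control and from 12570324 to 24173909 in cKO libraries. Each library of a genotype differed from the others by far more than counting noise (over 9 pairs the lowest chi-square was 32.8 per degree of freedom), so none is a copy of another. This measure cannot tell separate animals from repeat libraries of the same animal. The labels describe the samples as separate animals.

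Levels are given in CPM, counts expressed per fixed library total, after scaling between libraries by the TMM method. They are not divided by transcript length, so the level of a gene is compared between libraries. Ratios of gene pairs are likewise read only between libraries, and the share of a gene in a marker sum also depends on transcript length. Differences are log2 fold changes of cKO against control from edgeR's quasi-likelihood test, and p-values were adjusted over all 13296 genes tested by the Benjamini-Hochberg method. A gene counted as changed at an adjusted p under 0.05, which 6 genes reached (0.0451% of those tested, 5 higher and 1 lower in cKO). None of those 6 is among the 8 genes. In these bulk libraries, fewer cells of a type and less RNA per cell cannot be told apart.

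Markers of astrocytes, the cells that the tag was aimed at, were present in every library. The summed level of 8 astrocyte markers lay between 22530 and 34310 CPM in control and between 20470 and 45760 CPM in cKO libraries. That of 9 neuron markers lay between 3179 and 4196 CPM in control and between 2770 and 4243 CPM in cKO libraries, and no neuron marker was at 0 in any library. The sum of 6 oligodendrocyte markers lay between 716 and 799 CPM in control (median 770) and between 448 and 840 CPM in cKO libraries (median 608). All 6 had a negative log2 fold change and 1, Mobp, an unadjusted p under 0.05 in edgeR's test. Over the 7 libraries, 6 microglia markers summed to 41.2 to 81.1 CPM and 5 endothelial markers, 3 of which were at 0 in some library, to 7.85 to 21.5 CPM. No marker of any of these cell types passed the test between genotypes after adjustment. The part of other cell types in the values of the 8 genes was not tested beyond the neuron marker and astrocyte marker settings given with the pattern over libraries. The targeted gene Slc2a1, counted over the whole gene, was at 59.5 ± 2.03 CPM in control (SD, n = 3) and 59.0 ± 2.30 CPM in cKO libraries (SD, n = 4), with a log2 fold change of -0.01 (SE 0.12). This count takes in the whole gene and gives no check of the genotype labels, and the deleted exons were not analysed separately here.

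None of the 8 genes differed between genotypes beyond the spread between libraries. All 8 passed the filter on low counts, 0 passed the test, and the control and cKO libraries overlapped for all 8, where 5.11% of all tested genes had no overlap. The adjusted p was 0.9996 for each in edgeR's quasi-likelihood test (Benjamini-Hochberg), and none had an unadjusted p under 0.05, which 2.58% of all tested genes did. Slc1a2 and Glul had positive and the other 6 genes negative log2 fold changes, with a median of -0.07 (range -0.20 to 0.25), against a median of 0.01 over all tested genes, of which 47.7% were negative. The median SE of the 8 genes was 0.17, against 0.25 over all tested genes. Glul, with an SE of 0.31, was the exception and lay above the median of all tested genes. Behind each value stood at least 1601 counts (Aldh5a1 in cKO 17) and up to 310125 counts (Slc1a2 in control 11), so counting error was small beside the differences between libraries.

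**Figure D1:**
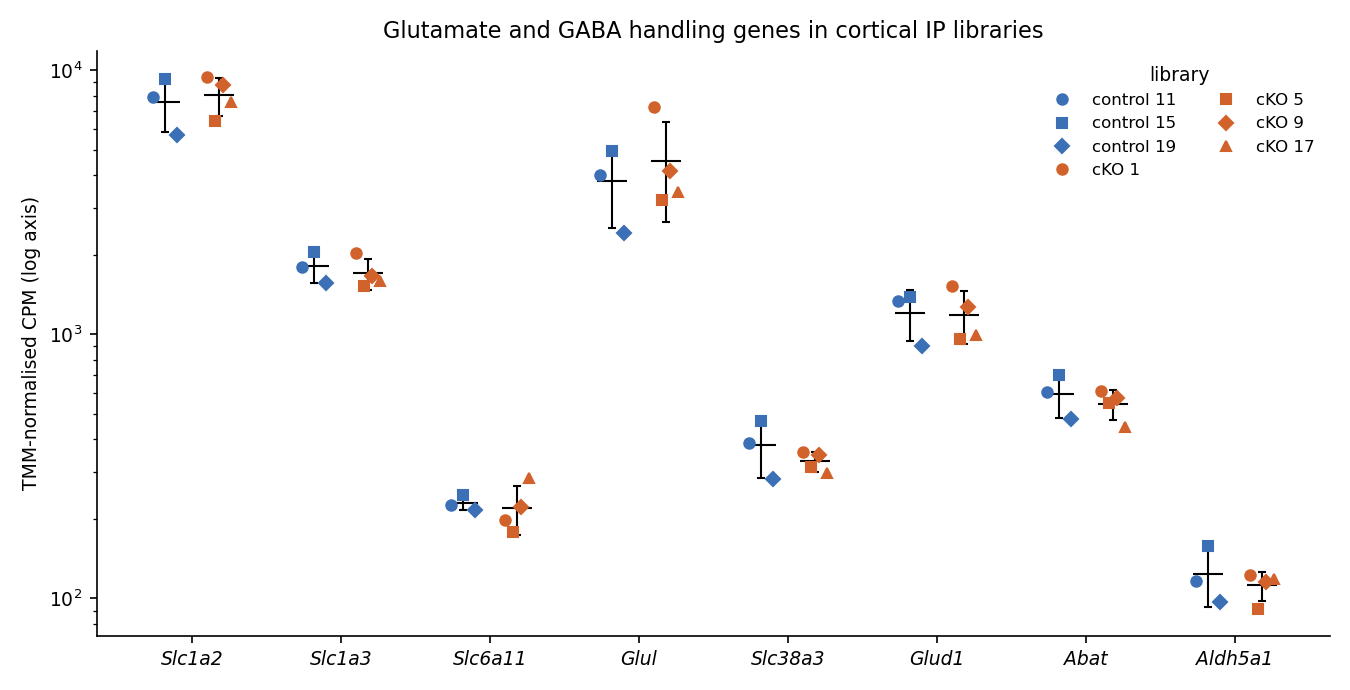
Level of each of the 8 genes in TMM-normalised CPM on a log axis, with a point for each of the 7 IP libraries (blue control, orange cKO, symbols as in the key) and bars for the mean and SD of each genotype. The points of the genotypes overlap for every gene, and the widest spread is that of Glul, from 2419 CPM in control 19 to 7217 CPM in cKO 1.

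Slc1a2 encodes GLT-1, the transporter responsible for most glutamate uptake in the adult forebrain (RefSeq GRCm38.p6, chromosome 2, 102658239 to 102790784, plus strand). It was at 7880, 9216 and 5675 CPM in control 11, 15 and 19, and at 9368, 6416, 8743 and 7566 CPM in cKO 1, 5, 9 and 17. The lowest library was a control and the highest a cKO library, with the others interleaved. Means were 7591 ± 1788 CPM in control (SD, n = 3) and 8023 ± 1306 CPM in cKO (SD, n = 4), a log2 fold change of 0.08 (SE 0.20, 95% interval -0.36 to 0.52, adjusted p 0.9996, edgeR's quasi-likelihood test). On the linear scale that interval runs from 0.777-fold to 1.44-fold.

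Slc1a3 encodes GLAST, the other astrocytic glutamate transporter, and lies on the minus strand of chromosome 15 (8634124 to 8710807). The 250 bases before its RefSeq start (GRCm38.p6, chr15:8710808-8711057, minus strand) are shown because the promoter of this gene also drives CreERT2 in every animal used here, so that the level of Slc1a3 was read on a background that was altered at this gene in both genotypes. Capitals mark matches on either strand to the letters CCAAT, to the TATA box letters TATAAA, and to GGGCGG, the letters of a GC box.
Slc1a3: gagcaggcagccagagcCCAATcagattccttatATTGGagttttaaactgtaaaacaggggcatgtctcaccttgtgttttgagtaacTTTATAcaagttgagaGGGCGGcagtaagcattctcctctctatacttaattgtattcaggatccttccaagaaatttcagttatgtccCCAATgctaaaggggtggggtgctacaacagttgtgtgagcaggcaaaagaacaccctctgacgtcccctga
CCAAT occurs on the strand of the gene 233 and 72 bases before the start and on the other strand 216 bases before it. GGGCGG occurs 145 bases before the start on the strand of the gene, and TATAAA 161 bases before it on the other strand. Of 32851 promoter windows of this length in the RefSeq table, 33.8% hold CCAAT, 32.7% GGGCGG and 12.4% TATAAA on either strand. The GC content of the window is 44.8%, against a median of 52.4% over these windows. No binding or methylation was measured here, so the matches describe the sequence only.

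Slc1a3 was at 1802, 2054 and 1567 CPM in control 11, 15 and 19, and at 2028, 1521, 1660 and 1593 CPM in cKO 1, 5, 9 and 17. The highest value of each genotype was nearly the same, and 5 of the 7 libraries lay between 1521 and 1802 CPM, which made it the steadiest of the 8 genes. Its highest library was 1.35-fold above its lowest. Means were 1808 ± 244 CPM in control (SD, n = 3) and 1700 ± 226 CPM in cKO libraries (SD, n = 4). The log2 fold change was -0.09 (SE 0.16, 95% interval -0.43 to 0.25, adjusted p 0.9996 in edgeR's quasi-likelihood test), or 0.742-fold to 1.19-fold. The ratio of Slc1a2 to Slc1a3 counts, which needs no scaling between libraries, was 4.37, 4.49 and 3.62 in control and 4.62, 4.22, 5.27 and 4.75 in cKO libraries. The ratio differed by 0.18 on the log2 scale (exact two-sided permutation test, p = 0.171, adjusted over 7 ratios 0.600), where the smallest p that 3 against 4 libraries allow is 0.0286.

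Slc6a11 encodes GAT-3, the GABA transporter of astrocytes (chromosome 6, 114131241 to 114249886, plus strand). It was at 227, 246 and 217 CPM in control 11, 15 and 19, and at 197, 178, 221 and 286 CPM in cKO 1, 5, 9 and 17. All control libraries fell inside the span of the cKO libraries, which held both the lowest and the highest value. The coefficient of variation was 6.31% in control and 21.3% in cKO libraries, a difference in spread that was not tested. Means were 230 ± 14.5 CPM in control (SD, n = 3) and 221 ± 47.0 CPM in cKO (SD, n = 4), with a log2 fold change of -0.06 (SE 0.16, 95% interval -0.42 to 0.30, adjusted p 0.9996 in edgeR's quasi-likelihood test).

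Glul encodes glutamine synthetase, which joins glutamate and ammonia to glutamine and in the brain is found mainly in astrocytes (chromosome 1, 153899929 to 153909723, plus strand). It was at 4015, 4949 and 2419 CPM in control 11, 15 and 19, and at 7217, 3213, 4140 and 3457 CPM in cKO 1, 5, 9 and 17. A single library, cKO 1, stood above all others, and the remaining 3 cKO libraries lay inside the control span. Glul was the most variable of the 8 genes, with its highest library 2.98-fold above its lowest and coefficients of variation of 33.7% in control and 41.0% in cKO libraries. Means were 3794 ± 1279 CPM in control (SD, n = 3) and 4507 ± 1849 CPM in cKO (SD, n = 4), with a log2 fold change of 0.25 (SE 0.31, 95% interval -0.43 to 0.93, adjusted p 0.9996 in edgeR's quasi-likelihood test). The interval covers 0.740-fold to 1.91-fold, the widest of the 8 genes. Without cKO 1 the log2 fold change was -0.07, so the sign of the difference rested on that library.

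Slc38a3 encodes SNAT3, a transporter that moves glutamine out of and into astrocytes together with sodium ions (chromosome 9, 107651154 to 107668968). It was at 386, 470 and 282 CPM in control 11, 15 and 19, and at 359, 315, 348 and 299 CPM in cKO 1, 5, 9 and 17. All 4 cKO libraries lay within the control span, which held both the highest and the lowest value. Means were 379 ± 94.0 CPM in control (SD, n = 3) and 330 ± 28.1 CPM in cKO (SD, n = 4). The log2 fold change of -0.20 (SE 0.17, 95% interval -0.57 to 0.17, adjusted p 0.9996 in edgeR's quasi-likelihood test) was the most negative of the 8, and Slc38a3 was the only one whose sign was the same under all 16 alternative settings. The interval runs from 0.672-fold to 1.13-fold. The ratio of Slc38a3 to Glul counts was 0.0961, 0.0949 and 0.117 in control and 0.0498, 0.0980, 0.0840 and 0.0864 in cKO libraries, a log2 difference of -0.40 (exact permutation test, p = 0.171, adjusted 0.600). The lowest of these ratios is that of cKO 1, the library with the high Glul level.

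Glud1 encodes mitochondrial glutamate dehydrogenase, which converts glutamate to the cycle intermediate 2-oxoglutarate (chromosome 14, 34310727 to 34345033, plus strand). It was at 1336, 1378 and 905 CPM in control 11, 15 and 19, and at 1526, 958, 1271 and 992 CPM in cKO 1, 5, 9 and 17. In each genotype the libraries spread over a similar span, from 905 to 1378 CPM and from 958 to 1526 CPM, and the means were nearly equal. They were 1206 ± 262 CPM in control (SD, n = 3) and 1187 ± 266 CPM in cKO (SD, n = 4), with the smallest difference of the 8 genes, a log2 fold change of -0.02 (SE 0.21, 95% interval -0.48 to 0.43, adjusted p 0.9996 in edgeR's quasi-likelihood test). The ratio of Glul to Glud1 counts, a gene of the glutamine route over a gene of the oxidative route, differed by 0.26 on the log2 scale (exact permutation test, p = 0.257, adjusted 0.600). It compares RNA levels only, and flux through these routes was not measured.

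Abat encodes GABA transaminase, which turns GABA into succinic semialdehyde (chromosome 16, 8513429 to 8621568). It was at 607, 701 and 477 CPM in control 11, 15 and 19, and at 609, 547, 571 and 447 CPM in cKO 1, 5, 9 and 17. Control 15 was the highest and cKO 17 the lowest library, with the others between 477 and 609 CPM in both genotypes. Means were 595 ± 112 CPM in control (SD, n = 3) and 544 ± 69.2 CPM in cKO (SD, n = 4), with a log2 fold change of -0.13 (SE 0.16, 95% interval -0.49 to 0.23, adjusted p 0.9996 in edgeR's quasi-likelihood test).

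Aldh5a1 encodes succinic semialdehyde dehydrogenase, which takes the next step to succinate (chromosome 13, 24907579 to 24937661, minus strand). It was at 116, 157 and 96.8 CPM in control 11, 15 and 19, and at 123, 91.2, 116 and 119 CPM in cKO 1, 5, 9 and 17. Control 15 was again the highest, and 3 of the 4 cKO libraries were close to control 11. Means were 124 ± 30.9 CPM in control (SD, n = 3) and 112 ± 14.2 CPM in cKO (SD, n = 4), with a log2 fold change of -0.14 (SE 0.18, 95% interval -0.53 to 0.25, adjusted p 0.9996 in edgeR's quasi-likelihood test). The ratio of Abat to Aldh5a1 counts, the consecutive enzymes of this route, was the same in both genotypes within its spread (log2 means of 2.28 ± 0.11 in control and 2.28 ± 0.28 in cKO libraries, SD, n = 3 and 4). That of Abat to Slc6a11, a gene of GABA breakdown over a gene of GABA uptake, differed by -0.04 (exact permutation test, p = 0.971).

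**Figure D2:**
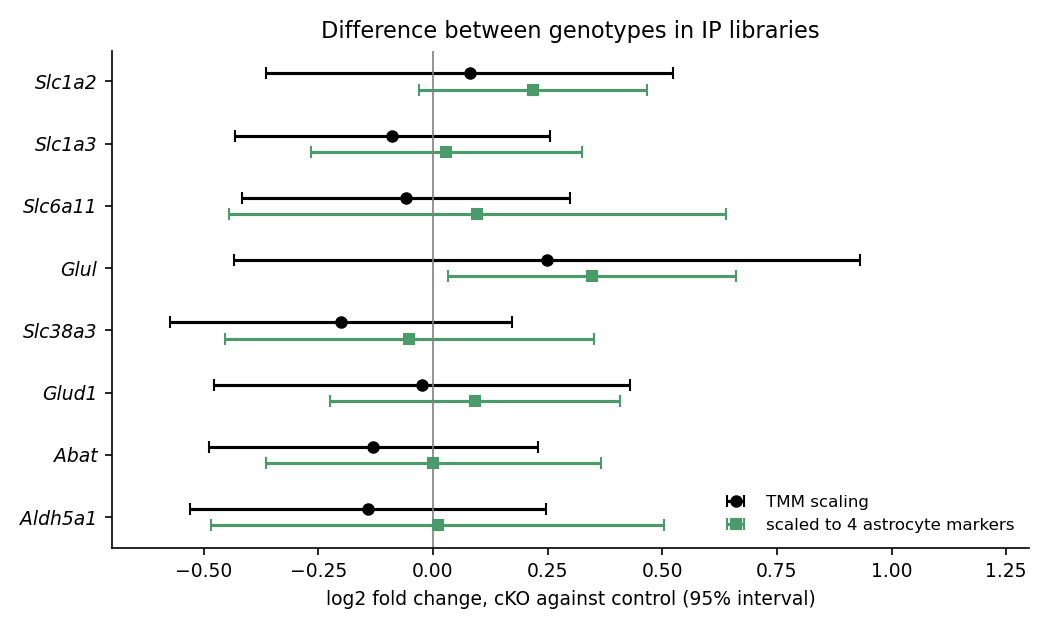
Log2 fold change of cKO against control for each of the 8 genes with its 95% interval, under TMM scaling (black circles) and after scaling to 4 astrocyte markers (green squares). Every black interval includes 0, from 0.08 for Slc1a2 and 0.25 for Glul to -0.20 for Slc38a3. The green values are shifted upwards for all 8 genes, with an interval above 0 for Glul. Scaling without Aldh1l1, the most negative of the 4 astrocyte markers under TMM scaling, was not tested.

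Most of the 8 genes were high or low in the same libraries, within as well as between genotypes, with Slc6a11 as the main exception, since its highest level was in cKO 17. In control 11 and 15 all 8 genes were above their own mean over the 7 libraries, and in control 19 none was. In cKO 1 there were 7 above it, in cKO 9 there were 6, in cKO 17 there were 2 and in cKO 5 none. The median deviation from the gene's own mean was 0.28 on the log2 scale in control 15 and 0.17 in cKO 1, and -0.28 in both control 19 and cKO 5. The 8 genes made up 1.25% of all counts in control 19, 1.42% in cKO 5, 1.58% in both control 11 and cKO 17, 1.72% in cKO 9, 1.82% in control 15 and 1.87% in cKO 1.

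The summed levels of neuron and astrocyte markers moved with this pattern. Control 19, cKO 5 and cKO 17 had the highest sums of the 9 neuron markers (4196, 4243 and 4227 CPM, against 2770 to 3392 CPM in the other 4 libraries). Snap25 was the largest part of them, at 2255, 2244 and 2246 CPM. Not all of the 9 followed, since Gad1 was lowest in cKO 5 (23.7 CPM) and Slc17a7 in cKO 17 (8.37 CPM). These 3 libraries also had the lowest sums of the 8 astrocyte markers (22530, 22820 and 20470 CPM, against 27680 to 45760 CPM). Aldoc was by far the largest part of those sums, at 17040, 17560 and 15320 CPM. Not all of the 8 followed the sum. In cKO 5, Gja1 was at 1162 CPM and Fgfr3 at 910 CPM, against 1120 and 848 CPM in cKO 9. These 3 libraries come from both genotypes, and their sums do not separate control from cKO among the 7 libraries used. The authors had left out IP samples high in neuronal genes, so the overlap in neuron markers partly reflects that choice. The labelled IP samples not used here were all controls (5 labelled, 3 used). Whether they are the samples left out for neuronal genes is not stated. With these 3 left out, an alternative chosen after the data had been seen, again none of the 8 genes passed the test, and Glud1 was the gene whose sign turned (0.04). With the neuron marker level as a term in the fit, none of the 8 passed either.

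**Figure D3:**
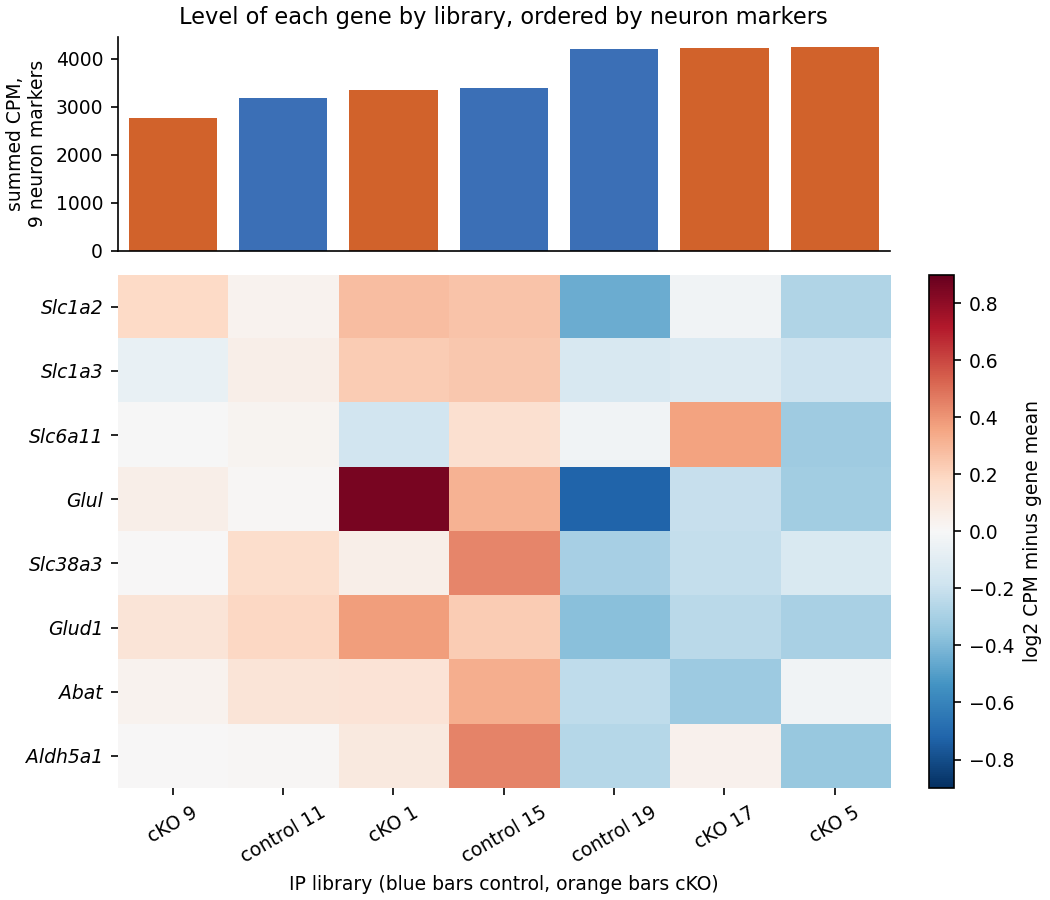
Top, summed CPM of 9 neuron markers in each IP library (blue control, orange cKO), ordered from low to high; bottom, log2 CPM of each of the 8 genes minus its mean over the 7 libraries. Control 19, cKO 17 and cKO 5, at 4196 to 4243 CPM of neuron markers, hold most of the blue cells, whereas the deepest red is Glul in cKO 1 (0.86 above its mean).

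Set against other astrocyte genes in the same library, Glul and Slc1a2 had the largest differences. The reference was the geometric mean of Aldh1l1, Gja1, Aqp4 and Aldoc, which label astrocytes broadly. Under TMM scaling their log2 fold changes were -0.35, 0.006, 0.005 and -0.07, so that of Aldh1l1 was the most negative. The astrocyte markers left out, Gfap, S100b, Sox9 and Fgfr3, were at -0.10, 0.15, -0.09 and 0.005. A reference without Aldh1l1 or with the markers left out was not tested. Relative to the reference used, Glul stood at 2.19, 2.46 and 1.73 in control and at 3.33, 2.17, 2.69 and 2.62 in cKO libraries. The means were 2.13 ± 0.367 and 2.70 ± 0.480 (SD, n = 3 and 4). Slc1a2 stood at 4.30, 4.58 and 4.06 in control and at 4.33, 4.33, 5.68 and 5.74 in cKO libraries. The higher Slc1a2 ratios were those of cKO 9 and 17, while cKO 1 and 5 lay within the control span, and for both genes the genotypes overlapped. In a fit scaled to Aldh1l1, Gja1, Aqp4 and Aldoc the log2 fold change was 0.35 for Glul (95% interval 0.03 to 0.66, unadjusted p 0.0327 and adjusted p 0.9997 in edgeR's quasi-likelihood test) and 0.22 for Slc1a2 (-0.03 to 0.47, adjusted p 0.9997).

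That scaling moved the median of all tested genes by 0.12, to 0.13 on the log2 scale. Relative to that median the log2 fold changes were 0.22 for Glul and 0.09 for Slc1a2, close to those under TMM scaling. They were negative for the other 6 genes, from -0.03 for Slc6a11 to -0.18 for Slc38a3, including those 5 whose value turned positive before the median was taken off (Slc1a3, Slc6a11, Glud1, Abat and Aldh5a1). For the steadier genes the ratio to the astrocyte reference was nearly the same in both genotypes, at 1.04 ± 0.0714 and 1.06 ± 0.114 for Slc1a3 and at 0.340 ± 0.00844 and 0.340 ± 0.0418 for Abat (SD, n = 3 control and 4 cKO libraries).

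The genes whose profile over the 7 libraries lay closest to each of the 8 were sought among 4907 genes with a mean log2 CPM of at least 5. Likeness was the root mean square distance between log2 levels after each gene was centred on its own mean. For Glud1 the nearest gene was Oat, the gene of ornithine aminotransferase (distance 0.05, median over all genes 0.29), with Pgam1 also at 0.05. The nearest gene was Acsl6 for Abat (0.05, median 0.25) and Wfs1 for Slc1a3 (0.02, median 0.23). It was Fgd6 for Slc1a2 (0.05, median 0.28), Lsm14a for Slc6a11 (0.07, median 0.27), Acadvl for Slc38a3 (0.07, median 0.27) and Scamp2 for Aldh5a1 (0.07, median 0.28). Glul had the most distant nearest gene, Actg1 at 0.11 (median 0.47). Each nearest gene is the closest of 4907, so a distance far below the median follows from the search itself. All these profiles share the same 7 libraries and their depth and cell type makeup.

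A list of 44 other genes of glutamate and GABA transport, metabolism and reception was examined beside the 8, and 41 of them passed the filter on low counts. In edgeR's quasi-likelihood test (Benjamini-Hochberg) 0 of the 41 passed, with 20 higher and 21 lower in cKO and a median log2 fold change of -0.01. An unadjusted p under 0.05 was reached by 3 genes, named here as not passing after adjustment. By role, 8 of the 13 tested transporters were higher and 5 lower (median 0.07), as were 1 and 2 of the 3 mitochondrial carriers (median -0.01), 5 and 12 of the 17 enzymes (median -0.07), and 6 and 2 of the 8 receptors (median 0.20). Slc17a7, Gad1 and Gad2 in this list are also among the 9 neuron markers.

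Folh1, which encodes the peptidase that releases glutamate from N-acetylaspartylglutamate, was at 25.2, 14.6 and 20.0 CPM in control 11, 15 and 19, and at 48.7, 41.0, 25.0 and 26.7 CPM in cKO 1, 5, 9 and 17. Only cKO 9 fell below the highest control library. The log2 fold change was 0.83 (SE 0.27, unadjusted p 0.0121, adjusted p 0.9996, edgeR's quasi-likelihood test). Gabra2, a GABA-A receptor subunit, was at 6.89, 6.18 and 7.98 CPM in control and at 9.63, 19.6, 8.35 and 12.2 CPM in cKO libraries. It was the 1 gene of the 41 whose genotypes did not overlap, where 5.11% of all tested genes had no overlap, and its log2 fold change was 0.83 (SE 0.33, adjusted p 0.9996 in edgeR's quasi-likelihood test). The highest Gabra2 levels were those of cKO 5 and cKO 17, which were also high in neuron markers. Control 19, likewise high in those markers, was at 7.98 CPM. Without the 3 libraries highest in neuron markers the log2 fold change was 0.45, and with the neuron marker level as a term in the fit it was 0.715. The part of neurons in this difference was not tested further.

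Gabbr1, a subunit of the metabotropic GABA-B receptor, was at 282, 252 and 275 CPM in control and at 334, 280, 382 and 366 CPM in cKO libraries, a log2 fold change of 0.34 (SE 0.14, adjusted p 0.9996 in edgeR's quasi-likelihood test). The cKO 5 library lay just below the highest control library, and the other 3 cKO libraries lay above it. Its partner subunit Gabbr2 had a log2 fold change of 0.33 (unadjusted p 0.0507 in the same edgeR test). Grm3, the glutamate receptor mGluR3 that astrocytes express, was at 294 ± 32.4 CPM in control and 287 ± 11.7 CPM in cKO libraries, and Slc25a18, a mitochondrial glutamate carrier, at 1269 ± 126 and 1258 ± 188 CPM (SD, n = 3 and 4).

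**Figure D4:**
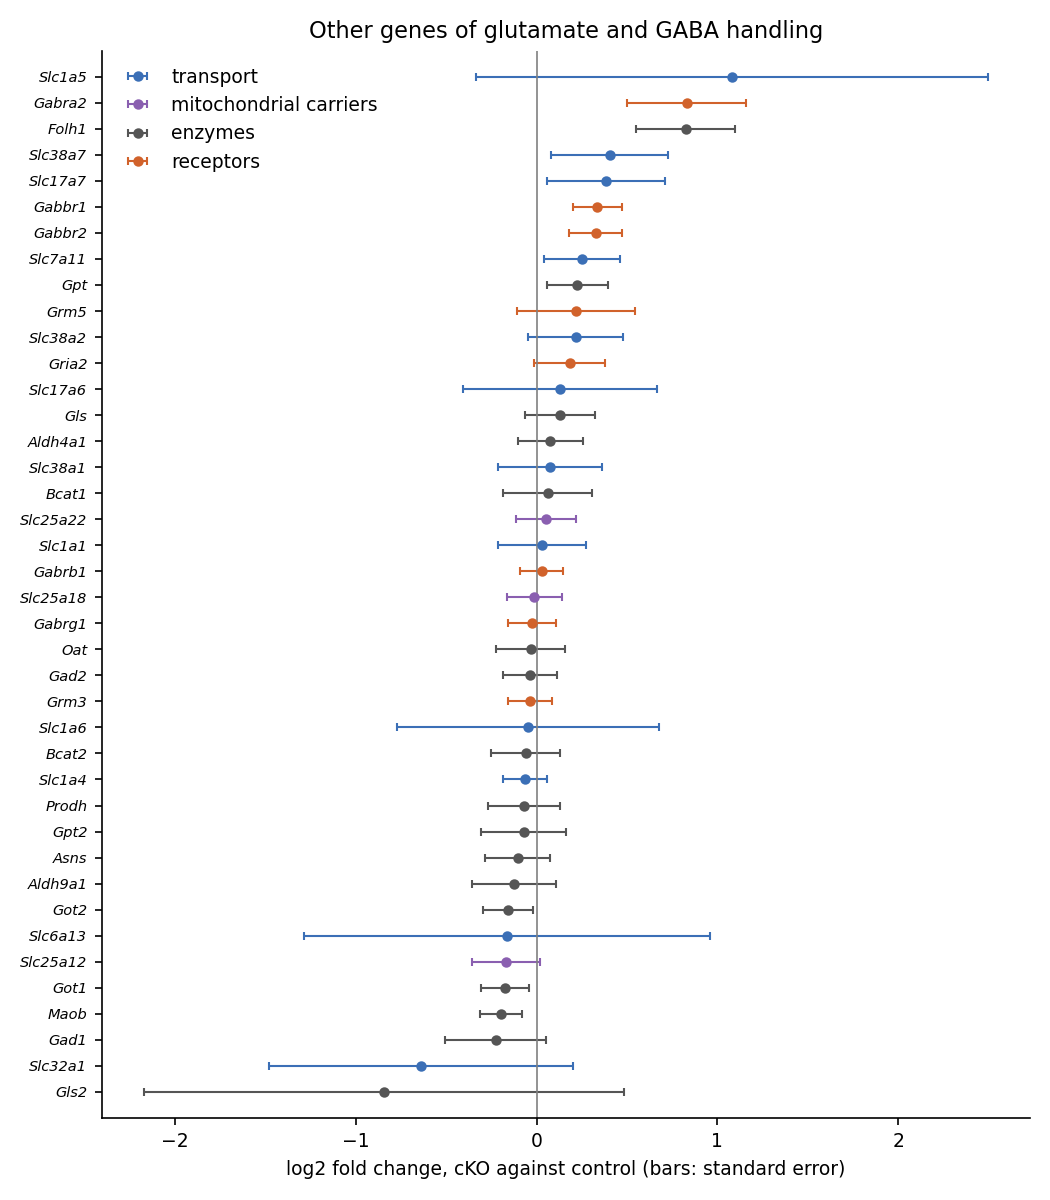
Log2 fold change of cKO against control with its standard error for tested genes of the related list, ordered by size and coloured by role. None passed the test after adjustment, and the values run from -0.84 (Gls2) to 1.08 (Slc1a5), both genes with few counts and wide errors.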

How the data were processed

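Reads (Smart-seq2 libraries, single end) were trimmed by the authors with cutadapt 1.15 and assigned to GENCODE vM17 transcripts with kallisto 0.44.0 (versions per the submitters' processing notes). The authors deposited estimated counts (expected counts) for each gene symbol, unscaled for library depth and gene length. Kallisto divides reads between transcripts that share sequence, which makes counts of near-identical copies less certain. Of 18 columns, the 7 that the study names as control or cKO IP samples were used, and 11 columns were not. The columns are not tied to single labelled animals.

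Counts were rounded to whole numbers, filtered with filterByExpr (13296 genes kept) and scaled by TMM. Genotype was the only term in edgeR's quasi-likelihood test (edgeR 4.0.16, R 4.3.3), with Benjamini-Hochberg adjustment at 0.05. The study's own test, edgeR's exact test, was an alternative, as was DESeq2 1.42.0. Standard errors and 95% intervals come from the quasi-likelihood F statistic. Ratios of 7 gene pairs were compared by exact permutation. A related gene and the ratio that uses it are not reported here. In the library of lowest depth 3 counts equal 0.239 CPM, a limit of counting error only. Profiles used log2 CPM with a prior count of 2. The scripts were tested on simulated data.

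The 8 genes, the related genes and the marker lists were chosen with earlier results of these data known. All 8 genes are given in every library, the related genes with an adjusted p under 0.05 or, failing that, up to 6 with the smallest unadjusted p under 0.05, and for each of the 8 the gene of nearest profile. Other related genes (Gabbr2, Grm3, Slc25a18 and the extremes Gls2 and Slc1a5) were named after their values were seen. Positions and the promoter are from RefSeq for GRCm38.p6, matched by symbol for 8 of 8 genes. A promoter was found for 6, not for Slc38a3 and Abat.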

Additional observations from a re-analysis of the deposited data

How the results depend on the processing

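None of the 8 genes passed the adjusted threshold of edgeR's quasi-likelihood test, nor of the edgeR exact test or DESeq2, under any of 16 alternatives (at most 1 gene at an unadjusted p under 0.05), and none of the related genes did (0 to 5 at an unadjusted p under 0.05). The number of all genes called was 6, and it was 18 with the edgeR exact test, 21 with DESeq2 and 29 without the 3 libraries highest in neuron markers, which was chosen after the data had been seen. Leaving out each library in turn gave 4 to 6. Of 128 values of the 8 genes under alternatives, 18 turned sign. Scaled to astrocyte markers, the log2 fold changes that turned were 0.0286 for Slc1a3, 0.0964 for Slc6a11, 0.0923 for Glud1, 6e-04 for Abat and 0.0103 for Aldh5a1. That of Glud1 was 0.0064 with the neuron marker term and 0.0397 without the 3 libraries. Leaving out each library gave -0.0934 to 0.2425 for Slc1a2, -0.1839 to 0.0128 for Slc1a3, -0.2083 to 0.0312 for Slc6a11, -0.0742 to 0.4857 for Glul, -0.376 to -0.0178 for Slc38a3, -0.1951 to 0.0823 for Glud1, -0.2676 to 0.0044 for Abat and -0.2911 to 0.0699 for Aldh5a1. Slc1a2 turned without control 19 or cKO 1, Glul without cKO 1, Slc1a3, Abat and Aldh5a1 without control 15, Slc6a11 without cKO 5, and Glud1 without control 11, control 15, cKO 5 or cKO 17. The cause of these changes beyond the fewer libraries was not tested. No paired analysis was possible because the columns used carry no replicate numbers. With 3 and 4 libraries, the intervals of the 8 genes reach as low as 0.672-fold (Slc38a3) and as high as 1.91-fold (Glul). The limits differ by gene, and differences inside a gene's own interval cannot be told from none.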
